A study of Mus musculus with 8 samples.

Results

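Resident macrophages of the heart were followed through 10 marker genes in left ventricular muscle, by taking every row of the array whose annotated gene symbol was one of them. Of the 10, 9 had a row (Adgre1, Lyve1, Timd4, Mrc1, Cd163, F13a1, Folr2, Csf1r and Cd14), with 1 row each, out of 19505 gene symbols on the table. No row carried the symbol Cd68, a lysosomal glycoprotein of macrophages, and it is not analysed here.

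Macrophages sit between the muscle cells of the healthy heart, where they clear dying cells and debris, recycle iron and help to maintain vessels and conduction. A large share of them is seeded before birth and renews itself in place, and these resident cells are commonly recognised by Lyve1, Timd4 and Folr2, with high Mrc1 and Cd163, while cells that arrive later from blood monocytes carry Ccr2. Their survival depends on signalling through the receptor encoded by Csf1r.

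The comparison asks how these markers stand in hearts with more of the microRNA miR-100. RNA came from the left ventricle of 8 male mice of strain C57/BL6J, 8 weeks old and untreated, of which 4 were wild type and 4 carried a cardiac-specific overexpression of microRNA-100. The promoter that drives the overexpression, and whether littermates were used, are not stated in the labels. Each array is read as 1 mouse, and p-values then measure only the spread between these 8 samples, which may be technical. Values are log2 signals, so a difference of 1 is a doubling.

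The arrays correlated with each other at 0.988 to 0.993 over 22206 rows. On the first principal component (21.7% of the variance) replicate 2 of each group stood apart from the rest of its group. Wild type replicate 2 had a score of -38.2, where the remaining wild type scores were -13.0 to -3.49. In the miR-100 group replicate 2 had a score of 30.8, where the remaining scores were 8.96 to 13.5. Heart muscle genes marked the tissue, with Myh6 at 19.17 ± 0.03 in wild type and 19.13 ± 0.08 with miR-100 overexpression (SD, n = 4 in both groups). The microRNA itself has no row under its own or its host gene symbol, and its level was not analysed here. Levels of different rows depend on their probes and are not set against each other. Bulk tissue was measured, in which fewer cells of a type and less RNA per cell cannot be told apart.

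The microRNA raised in these hearts is shown first, because its seed decides which transcripts it can pair with, and beside it stand its relatives miR-99a and miR-99b. The sequences are from RefSeq (GRCm38.p6, 5′ to 3′), with the seed, bases 2 to 8, in capitals.
mmu-miR-100-5p (chr9:41531437-41531458, plus strand): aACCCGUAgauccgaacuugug
mmu-miR-99a-5p (chr16:77598940-77598961, plus strand): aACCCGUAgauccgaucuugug
mmu-miR-99b-5p (chr17:17830194-17830215, plus strand): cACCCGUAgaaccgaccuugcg
All 3 carry the same seed, so they share one set of possible seed matches. Whether the marker transcripts hold such matches was not analysed here.

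Lyve1 and Timd4 were the markers with the largest differences, both lower on average in the miR-100 hearts, by 0.64 and 0.54 on the log2 scale, and neither passed the threshold. Over all markers, 0 of 9 passed a limma adjusted p of 0.05, a threshold that 0.14% of all rows passed (0.0946% higher and 0.045% lower). At an unadjusted p under 0.05, 2 of 9 were lower and 0 higher, where the table as a whole had 7.73% in either direction, 4.17% lower and 3.55% higher. In 0 of 9 markers did the groups stand clear of each other, against 4.54% of all rows. Of the 9 differences 7 were below 0, against 53% of all rows, and 2 above, against 46.5%, and their median was -0.12 against -0.015 for the table. The median was -0.23 without wild type replicate 2 and -0.04 without miR-100 replicate 4.

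**Figure D1:**
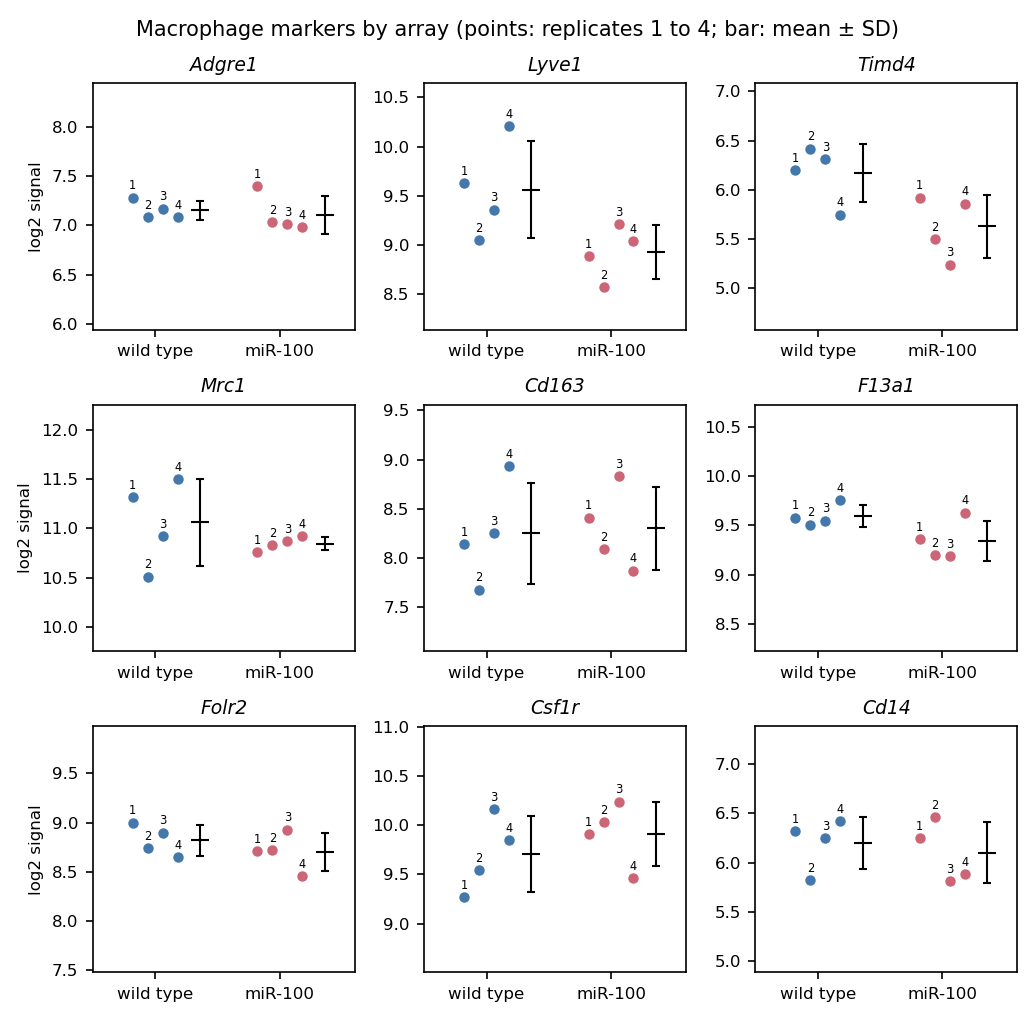
Log2 signal (vertical axis, every panel of equal span) of the 9 macrophage markers in wild type and miR-100 overexpressing hearts, with a numbered point per array and the mean ± SD of each group (n = 4) beside the points. The groups overlap in each panel, with Lyve1 and Timd4 showing the largest gaps between means.

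Lyve1 encodes a hyaluronan receptor of lymphatic vessels that the perivascular resident macrophages also carry. It had 9.63, 9.05, 9.36 and 10.21 in wild type replicates 1 to 4 and 8.89, 8.57, 9.21 and 9.04 in miR-100 replicates 1 to 4. Wild type replicates 1, 3 and 4 lay above all miR-100 arrays, and wild type replicate 2 fell inside their range. The means were 9.56 ± 0.49 and 8.93 ± 0.27 (SD, n = 4 in both groups). Their difference was -0.64 (SE 0.23, 95% confidence interval -1.13 to -0.14, limma adjusted p = 0.469, two-sided exact permutation p = 0.0571), a 1.55-fold lower level. The size rests in part on wild type replicate 4, without which the difference was -0.42, while without wild type replicate 2 it was -0.81.

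Timd4 encodes a phosphatidylserine receptor with which resident macrophages bind dying cells. Its wild type values were 6.2, 6.42, 6.31 and 5.75, and its miR-100 values 5.92, 5.5, 5.24 and 5.86. Wild type replicates 1 to 3 lay above every miR-100 array, and wild type replicate 4, the array with the highest Lyve1, lay below 2 of them. The means were 6.17 ± 0.29 and 5.63 ± 0.32 (SD, n = 4 in both groups), differing by -0.54 (SE 0.19, 95% confidence interval -0.96 to -0.12, limma adjusted p = 0.468, two-sided exact permutation p = 0.0857). With 4 arrays a group the smallest p that this permutation test can give is 0.0286.

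Among the scavenger and uptake receptors, Mrc1, the mannose receptor that takes up glycoproteins, had 11.32, 10.51, 10.92 and 11.50 in wild type and 10.76, 10.83, 10.87 and 10.92 with miR-100 overexpression. The wild type arrays were spread widely (SD 0.44) and enclosed the miR-100 arrays, which lay close together (SD 0.07). Its difference was -0.22 (95% confidence interval -0.64 to 0.21, limma adjusted p = 0.871), which moved to -0.40 when wild type replicate 2 was left out and to -0.07 when replicate 4 was. Cd163, the receptor for haemoglobin bound to haptoglobin, had 8.14, 7.68, 8.25 and 8.93 in wild type and 8.41, 8.09, 8.83 and 7.87 with miR-100 overexpression. Both groups covered much the same range, and the difference of 0.05 (95% confidence interval -0.51 to 0.61, limma adjusted p = 0.984) became -0.14 without wild type replicate 2 and -0.13 without miR-100 replicate 3. Folr2, a folate receptor anchored in the membrane by a lipid, had 9.0, 8.74, 8.90 and 8.65 in wild type and 8.71, 8.72, 8.93 and 8.46 with miR-100 overexpression. Its values varied little in either group (SD 0.16 and 0.19), and the difference was -0.12 (95% confidence interval -0.45 to 0.21, limma adjusted p = 0.918).

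F13a1 encodes the catalytic A subunit of coagulation factor XIII, a transglutaminase that crosslinks fibrin and is made by macrophages and platelets. It had 9.58, 9.51, 9.55 and 9.76 in wild type and 9.36, 9.20, 9.19 and 9.63 with miR-100 overexpression. The groups were separate but for miR-100 replicate 4, which reached above 3 of the wild type arrays. The difference was -0.26 (SE 0.15, 95% confidence interval -0.58 to 0.07, limma adjusted p = 0.736, two-sided exact permutation p = 0.114).

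The markers shared by most macrophages differed little. Adgre1, which encodes the adhesion receptor F4/80, had 7.28, 7.08, 7.17 and 7.08 in wild type and 7.40, 7.03, 7.01 and 6.98 with miR-100 overexpression. In the miR-100 group replicate 1 held the highest value of the 8 arrays and the other three the lowest, and the difference was -0.05 (95% confidence interval -0.36 to 0.27, limma adjusted p = 0.972). Csf1r, the receptor for the growth factors CSF1 and IL-34, had 9.27, 9.54, 10.16 and 9.85 in wild type and 9.91, 10.03, 10.24 and 9.46 with miR-100 overexpression. Its difference of 0.20 (95% confidence interval -0.26 to 0.67, limma adjusted p = 0.889) was one of 2 above 0 among the markers, and moved from 0.06 without wild type replicate 1 to 0.36 without miR-100 replicate 4. Cd14, the coreceptor that hands lipopolysaccharide to the TLR4 complex, had 6.32, 5.82, 6.25 and 6.42 in wild type and 6.25, 6.46, 5.81 and 5.88 with miR-100 overexpression, a difference of -0.10 (95% confidence interval -0.51 to 0.30, limma adjusted p = 0.946). These intervals reach from -0.51 to 0.67, so similar levels in both groups are not shown. In simulations of this comparison with 22206 rows limma recovered 5.97% of rows changed by 0.5 and 63.1% of those changed by 1, so the count of 0 markers does not show that they were unaffected.

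**Figure D2:**
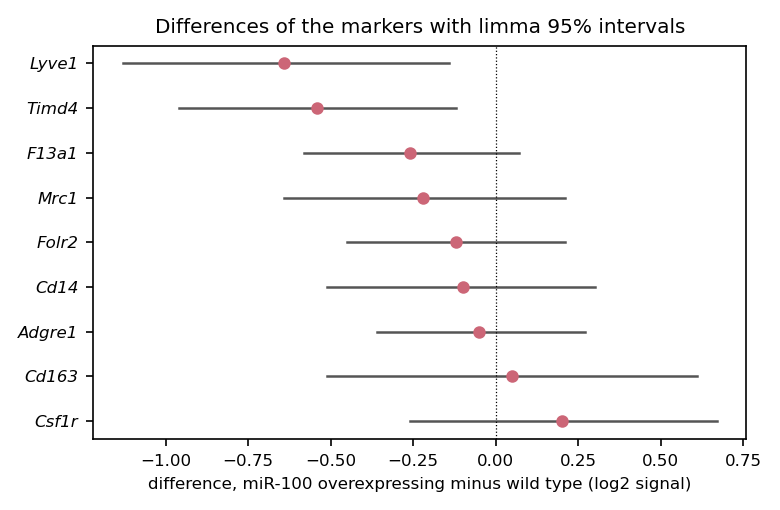
Difference of each macrophage marker, miR-100 overexpressing minus wild type (horizontal axis, log2 signal), with 95% confidence intervals from limma over 8 arrays (points and lines). The intervals of Lyve1 and Timd4 lie below 0 before adjustment over the table, and those of the other 7 markers cross 0.

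Whether the markers were high and low on the same arrays was asked over the 36 pairs of markers and the 8 arrays. Of the pairs 26 had a Pearson r above 0 (72.2%, against 50.1% over all pairs of rows), the median r was 0.12 (0.00 over all pairs of rows), and r ran from -0.59 to 0.83. An r of 0.7 or more was reached by 2 pairs (5.56%, against 2.92% of all pairs of rows). After Benjamini-Hochberg adjustment over the 36 pairs 0 passed 0.05 by r or by Spearman's rho in the exact permutation tests, with 2 at an unadjusted p under 0.05 by r and 1 by rho. All pairs share the same 8 arrays and their normalization, and the groups of 4 are too small for a correlation within each.

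The strongest pair was Lyve1 and Mrc1, both highest in wild type replicate 4 and second highest in wild type replicate 1. Their r was 0.83 (two-sided exact permutation p = 0.0125, adjusted 0.448) and rho 0.75 (p = 0.0377, adjusted 0.908). The relation held at r = 0.80 over the 6 arrays left without the 2 farthest from the median of Lyve1, and at 0.85 with each group taken around its own mean. F13a1 joined this pair, with r = 0.73 to Lyve1 (exact permutation p = 0.0366, adjusted 0.583; rho 0.57, p = 0.151, adjusted 0.908), 0.80 without the 2 arrays farthest from the median of F13a1 and 0.50 around the group means. F13a1 and Mrc1 had r = 0.56 (exact permutation p = 0.148, adjusted 0.583; rho 0.72, p = 0.0519, adjusted 0.908), and 0.72 without those 2 arrays.

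Next came Cd163 and Csf1r with r = 0.57 (exact permutation p = 0.147, adjusted 0.583; rho 0.48, p = 0.243, adjusted 0.908), at 0.52 without the 2 arrays farthest in Cd163. Cd163 and Mrc1 had r = 0.56 (exact permutation p = 0.141, adjusted 0.583; rho 0.44, p = 0.275, adjusted 0.908), at 0.38 without the same arrays. F13a1 and Timd4 had r = 0.56 (exact permutation p = 0.147, adjusted 0.583; rho 0.31, p = 0.462, adjusted 0.908), but r was -0.37 without miR-100 replicates 2 and 3, so that relation rests on those arrays.

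Timd4 did not follow the resident markers Lyve1 and Cd163. Folr2 was weakly related too, with r = 0.17 to Lyve1, 0.11 to Mrc1 and 0.23 to Cd163 (exact permutation p = 0.683, 0.792 and 0.585, each 0.937 adjusted). The r of Timd4 to Lyve1 was 0.15 (exact permutation p = 0.734, adjusted 0.937; rho 0.17, p = 0.703, adjusted 0.908), 0.20 without the 2 arrays farthest from the median of Lyve1, and -0.65 around the group means. Its r to Cd163 was the lowest of all pairs, at -0.59 (exact permutation p = 0.123, adjusted 0.583; rho -0.48, p = 0.243, adjusted 0.908), and weakened to -0.23 without wild type replicate 4 and miR-100 replicate 3. Csf1r ran against F13a1 at r = -0.55 (exact permutation p = 0.158, adjusted 0.583; rho -0.67, p = 0.0831, adjusted 0.908) and against Timd4 at r = -0.53 (exact permutation p = 0.182, adjusted 0.596; rho -0.43, p = 0.299, adjusted 0.908). Both relations kept their sign without wild type replicate 1 and miR-100 replicate 4, at -0.45 and -0.58. Against the mean of the other 8 markers, each scaled to its own spread, r was highest for Lyve1 at 0.69 and Mrc1 at 0.63 and lowest for Csf1r at -0.15 and Timd4 at -0.01, as a description over the 8 arrays.

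**Figure D3:**
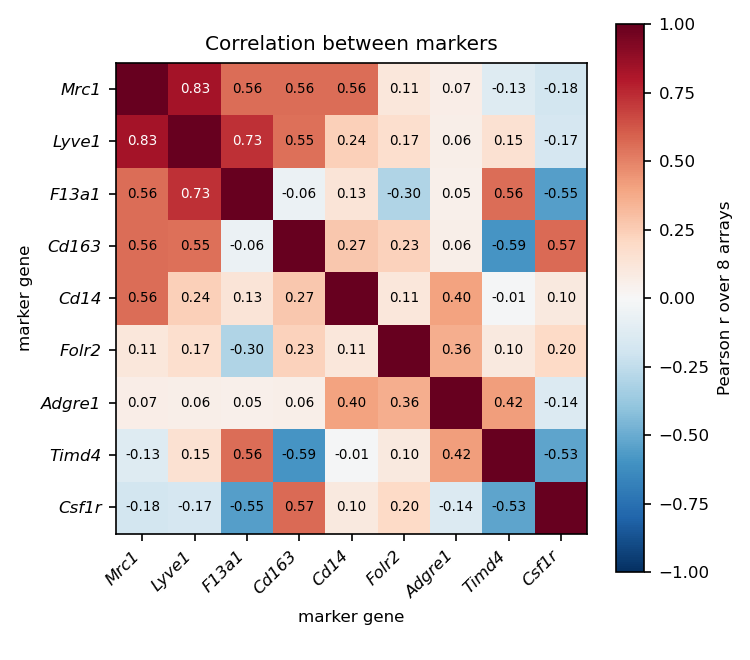
Pearson correlation of each pair of macrophage markers over the 8 arrays (colour and printed r, blue below 0 and red above). Mrc1, Lyve1 and F13a1 hold the 2 highest values, 0.83 and 0.73, while Timd4 and Csf1r show values below 0 with several markers.

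By array, wild type replicate 4 held the highest value of the 8 in 4 of the 9 markers, and miR-100 replicate 3 the lowest in 3. Wild type replicates 1 and 3 were each above the 8-array mean in 7 of the 9 markers, and miR-100 replicate 4 in 1. Wild type replicate 2 and miR-100 replicate 2, the arrays that stood apart on the first component, were each above it in 2.

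The genes whose pattern over the 8 arrays was most like the mean of the scaled markers were Nbl1, at r = 0.975, then Gzmb, Arhgef16, Cldn14, Plin4, Sf3b1, Myl4, Gng5, Erc1 and Nipbl, the last at 0.947. They are the top 10 among the 19572 rows with a symbol, the markers left out, over only 8 arrays, and the values are given as a description. None of the 10 had a symbol from the macrophage lists below.

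Promoter sequences are shown for Mrc1 and F13a1, which both had high correlations to Lyve1, and for Timd4, which had a low one. These genes were picked by their correlations, and a link between promoter letters and correlation was not tested. Macrophage promoters often bind the lineage factor PU.1, encoded by Spi1, whose core is GAGGAA, read TTCCTC on the other strand. The windows run from 250 bases before to 50 bases after a gene's start (RefSeq, GRCm38.p6, 5′ to 3′ on the gene's strand), with matches to the core on either strand in capitals.
Mrc1 (chr2:14229164-14229463, plus strand): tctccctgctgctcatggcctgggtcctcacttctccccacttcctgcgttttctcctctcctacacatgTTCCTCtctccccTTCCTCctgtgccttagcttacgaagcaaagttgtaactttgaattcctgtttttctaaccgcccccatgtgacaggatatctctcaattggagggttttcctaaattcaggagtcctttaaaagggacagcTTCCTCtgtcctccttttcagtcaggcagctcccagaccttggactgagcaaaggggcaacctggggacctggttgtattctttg
F13a1 (chr13:37049164-37049463, minus strand): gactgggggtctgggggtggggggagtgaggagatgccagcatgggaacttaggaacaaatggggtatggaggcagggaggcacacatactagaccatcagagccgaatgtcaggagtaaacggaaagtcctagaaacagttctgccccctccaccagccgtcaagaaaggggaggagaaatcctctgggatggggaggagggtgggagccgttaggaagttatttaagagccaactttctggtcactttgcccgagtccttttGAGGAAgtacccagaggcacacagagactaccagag
Timd4 (chr11:46810549-46810848, plus strand): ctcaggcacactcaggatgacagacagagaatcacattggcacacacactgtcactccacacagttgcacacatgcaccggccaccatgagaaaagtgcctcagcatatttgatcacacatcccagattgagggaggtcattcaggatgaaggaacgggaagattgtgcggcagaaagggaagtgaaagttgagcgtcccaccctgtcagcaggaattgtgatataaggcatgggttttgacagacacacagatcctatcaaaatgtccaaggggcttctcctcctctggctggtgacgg
The Mrc1 window held 3 matches on the reverse strand and this F13a1 window 1 on the forward strand (a second F13a1 window, not printed, held 2), while the Timd4 window held 0. The window of Cd163, with r = 0.55 to Lyve1 (exact permutation p = 0.158, adjusted 0.583; rho 0.48, p = 0.243, adjusted 0.908; r = 0.07 without the 2 arrays farthest in Cd163), held 0 matches. Both windows of Folr2, with r = 0.17 to Lyve1, also held 0. Among those searched, 4 of 8 windows and 3 of 6 marker genes held a match, Cd68 being the third gene. Windows on the chromosome that holds Csf1r and Cd14 were left out before counting, and Adgre1 and Lyve1 had no window in the count. These counts therefore do not cover all markers. At least 1 match was present in 28.3% of all 32851 windows of this kind, so such matches are common and describe the letters only. Spi1 itself had 9.90 ± 0.62 in wild type and 10.09 ± 0.28 with miR-100 overexpression (SD, n = 4 in both groups), differing by 0.19 (limma adjusted p = 0.924).

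Other macrophage genes were read from lists of genes with known roles. In the 20 core genes shared by tissue macrophages 0 passed over all rows (limma), with 10 differences above and 10 below 0 and a median of -0.01. Mpeg1, a pore-forming protein of phagocytes, had the lowest p in this list. Its levels were 5.64 ± 0.40 in wild type and 5.06 ± 0.30 with miR-100 overexpression (SD, n = 4 in both groups), differing by -0.57 (limma adjusted p = 0.485). At an unadjusted p under 0.05 it was the 1 gene of the 20, where 7.73% of all rows were called in either direction and 4.17% were lower. The mean level of the 20 genes ran from 7.56 to 7.78 in wild type and from 7.49 to 7.79 with miR-100 overexpression, so the groups overlapped. Ptprc, the CD45 antigen of all leukocytes, differed by 0.02 (95% confidence interval -0.31 to 0.34), a value that was -0.01 after quantile normalization.

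Of 15 further genes reported with resident macrophages 0 passed (limma), and 3 were higher at an unadjusted p under 0.05, against 3.55% of all rows, namely Stab1 and, chosen after their values were seen, Igf1 and Gas6. Stab1, a scavenger receptor of macrophages and endothelium, had 5.99, 6.17, 6.35 and 6.07 in wild type and 7.02, 6.61, 6.24 and 6.75 with miR-100 overexpression. Its difference of 0.51 (95% confidence interval 0.13 to 0.89, limma adjusted p = 0.432) was opposite in sign to those of Lyve1 and Timd4. The list's median was 0.05, with 10 differences above and 5 below 0. The mean level of the 15 genes ran from 7.89 to 7.98 in wild type and from 8.01 to 8.17 with miR-100 overexpression. The groups did not overlap, though narrowly, and the miR-100 arrays were higher, the opposite direction to Lyve1 and Timd4. The largest differences were those of Stab1, Igf1, Gas6 and Cd209f, at 0.51, 0.38, 0.32 and 0.28. With a median of 0.05, a rise across the whole list is not shown. In 3 of the 15 genes (Igf1, Gas6 and Cd209f) the miR-100 arrays all lay above the wild type arrays, against 2.21% of all rows, though Igf1 and Gas6 are also made by other heart cells.

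Among 11 measured genes of monocytes and monocyte-derived macrophages 0 passed (limma) and 0 were at an unadjusted p under 0.05, against 7.73% of all rows, with a median of -0.05. S100a4, a calcium-binding protein of motile cells, had the lowest p, with a difference of -0.34 (limma adjusted p = 0.726). The chemokine receptor gene Ccr2 was dim, at percentile 34.0 of row means. It had 4.46 ± 0.20 in wild type and 4.71 ± 0.65 with miR-100 overexpression (SD, n = 4 in both groups), differing by 0.26 (limma adjusted p = 0.888) that was -0.02 without miR-100 replicate 2.

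Class II genes, whose products present antigen on macrophages, dendritic cells and B cells, showed the largest differences of the macrophage lists, and 0 of 6 passed over all rows (limma). H2-Eb1, a beta chain, had 9.87, 9.63, 9.72 and 9.59 in wild type and 8.26, 9.07, 9.18 and 8.74 with miR-100 overexpression. All wild type arrays lay above all miR-100 arrays, with a difference of -0.89 (SE 0.19, 95% confidence interval -1.31 to -0.47, limma adjusted p = 0.144, two-sided exact permutation p = 0.0286, the smallest it can give). The others are named after their values were seen. H2-Aa, an alpha chain, had 11.88, 11.25, 11.47 and 11.21 in wild type and 9.65, 10.74, 10.96 and 10.38 with miR-100 overexpression, again without overlap, a difference of -1.02 (SE 0.25, limma adjusted p = 0.212, two-sided exact permutation p = 0.0286). H2-Ab1 differed by -0.52 (limma adjusted p = 0.608), by -0.33 without miR-100 replicate 1, the array with the lowest mean level of the list, and by -0.34 without wild type replicate 1. H2-DMb1 and H2-DMa, which load peptides, differed by -0.48 and -0.28, and Ciita, the class II transactivator, a dim row at percentile 23.9, by 0.03.

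At an unadjusted p under 0.05, 3 of the 6 class II genes were lower, against 4.17% of all rows, and in 3 of the 6 (H2-Eb1, H2-Aa and H2-DMa) the groups did not overlap, against 2.33% of all rows. Of these, H2-DMa was a dim row, at percentile 28.7 (limma adjusted p = 0.675). The list's median difference was -0.50. The summed picture per array, as the mean level of the 6 genes, ran from 7.79 to 8.26 in wild type and from 7.09 to 7.69 with miR-100 overexpression. No row carried the symbol Cd74, the class II invariant chain. Of the other cells that carry class II, dendritic cell markers had a mean level of 4.01 to 4.13 in wild type and 4.03 to 4.08 with miR-100 overexpression, with 6 of 8 below the 25th percentile of row means. B cell markers had 3.76 to 4.0 and 3.89 to 4.15, with 3 of 4 below that percentile. Their part in the class II values was not tested.

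**Figure D4:**
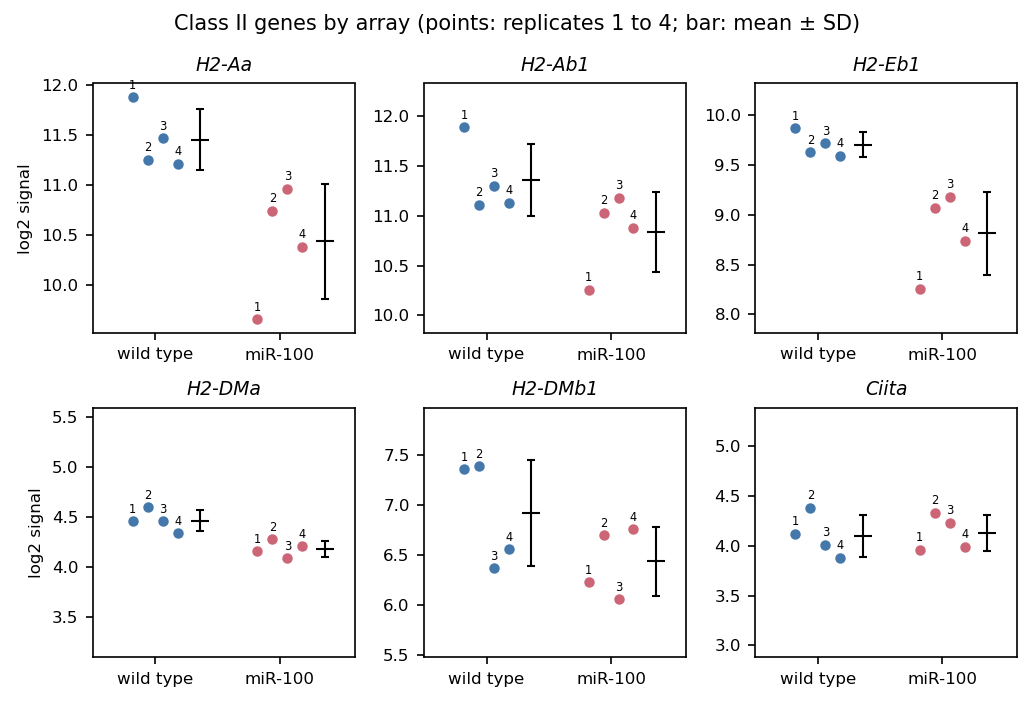
Log2 signal (vertical axis, every panel of equal span) of the 6 class II genes in wild type and miR-100 overexpressing hearts, with a numbered point per array and the mean ± SD of each group (n = 4). The groups do not overlap for H2-Aa, H2-Eb1 and H2-DMa, and miR-100 replicate 1 is the lowest array for H2-Aa, H2-Ab1 and H2-Eb1.

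The genes around each marker were read in the same way, from lists of its pathway. Of 11 measured genes of macrophage growth and identity 0 passed (limma), with a median of 0.03. Csf1, the main ligand of the receptor from Csf1r, differed by -0.26 (limma adjusted p = 0.830) and Il34, its other ligand, by 0.18 (limma adjusted p = 0.893). Csf1 was at -0.08 without miR-100 replicate 3, and Il34 at 0.04 without wild type replicate 1. Cebpb, a myeloid transcription factor gene, had the lowest p, and its groups did not overlap, at 6.60 ± 0.13 and 6.16 ± 0.14 (SD, n = 4 in both groups), differing by -0.44 (limma adjusted p = 0.399).

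Of 10 measured partners of Cd14 in the lipopolysaccharide receptor complex 0 passed (limma). Tlr4, the signalling receptor, stood out among them, with 10.09, 10.47, 10.52 and 10.65 in wild type and 10.94, 11.42, 11.19 and 10.88 with miR-100 overexpression. The groups did not overlap, and the difference was 0.68 (95% confidence interval 0.30 to 1.05, limma adjusted p = 0.228), while Cd14 and Ly96, the small subunit that binds the lipid, differed by -0.10 and -0.15. The median of the list was -0.01.

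Among 14 genes of apoptotic cell uptake, the setting of Timd4, 0 passed (limma) and the median was 0.05. Stab1 had the lowest p here too. Mertk, the receptor tyrosine kinase that engulfs bound cells, had 7.40 ± 0.17 and 7.46 ± 0.37 (SD, n = 4 in both groups), differing by 0.06 that was -0.06 without miR-100 replicate 3 and -0.01 without wild type replicate 2. Its bridging ligand Gas6 differed by 0.32 (limma adjusted p = 0.575). Among 10 genes of haemoglobin and iron recycling, the setting of Cd163, 0 passed (limma) and the median was -0.02. Slc40a1, the iron exporter ferroportin, had the lowest p, with 8.37, 8.71, 9.30 and 8.97 in wild type and 8.16, 8.68, 8.29 and 7.81 with miR-100 overexpression, a difference of -0.60 (limma adjusted p = 0.481). Hp, which encodes haptoglobin, a dim row at percentile 23.8, differed by 0.53 (limma adjusted p = 0.618), and by 0.26 without wild type replicate 2.

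Of 13 measured endocytic and scavenger receptor genes, the relatives of Mrc1 and Cd68, 0 passed (limma), with a median of -0.11. Scarb2, a lysosomal membrane receptor made by most cells, had 13.04, 13.19, 13.33 and 12.88 in wild type and 12.45, 12.25, 12.66 and 12.36 with miR-100 overexpression. The groups did not overlap, and the difference of -0.68 had a limma adjusted p of 0.175 that passed, at 0.0371, when limma used an intensity trend and robust moderation. Scarb2 passed in only 1 run. Ly75, a dim relative of Mrc1 at percentile 30.5 that is named after its values were seen, differed in the other direction, by 0.65 (limma adjusted p = 0.247). Its relatives Mrc2 and Pla2r1, also named after their values were seen, were lower, like Mrc1. They differed by -0.36 (limma adjusted p = 0.625) and -0.24 (limma adjusted p = 0.777). Of 11 measured hyaluronan genes, the ligand side of Lyve1, 0 passed (limma) and the median was -0.04. Cd44, the main hyaluronan receptor of leukocytes and stromal cells, had the lowest p, with 7.68, 6.96, 6.71 and 6.90 in wild type and 7.67, 8.57, 7.69 and 7.44 with miR-100 overexpression. Its difference of 0.78 (95% confidence interval 0.23 to 1.33, limma adjusted p = 0.404) was opposite in sign to that of Lyve1.

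Of 7 measured folate genes 0 passed (limma), with a median of 0.02. Tyms, the thymidylate synthase of dividing cells, had the lowest p, with a difference of -0.58 (limma adjusted p = 0.470), and -0.39 without wild type replicate 4. Folr1, a dim row at percentile 26.6 that is named after its values were seen, was higher, by 0.37 (limma adjusted p = 0.577). That is opposite in sign to Tyms and Folr2. Of 5 genes around F13a1, namely 4 transglutaminases and its carrier subunit F13b, 0 passed (limma). All 5 differences were below 0, as were 53% of all rows, with a median of -0.08 and the smallest, that of Tgm5, at -0.01. F13b was among the dimmest rows, at percentile 12.2, and differed by -0.27 (limma adjusted p = 0.797).

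Several markers are shared with other cells. Lyve1 is also a gene of lymphatic endothelium, and of 6 such markers 0 passed (limma) and 3 were above and 3 below 0. Pdpn had the lowest p, with a difference of -0.28 (limma adjusted p = 0.790), and the lineage factor Prox1, which heart muscle also expresses, had 10.89 ± 0.25 and 10.95 ± 0.24 (SD, n = 4 in both groups). Their mean level ran from 7.70 to 7.92 in wild type and from 7.46 to 7.85 with miR-100 overexpression, and its part in the Lyve1 values was not tested. F13a1 is also a gene of platelets, and of 5 such markers 0 passed (limma), with a median of 0.03. Itga2b, the platelet integrin, differed by -0.14 (limma adjusted p = 0.941), which was 0.06 without wild type replicate 1, and Ppbp, the gene of the list with the lowest p, was at 7.94 in miR-100 replicate 1 against 3.52 to 4.4 in the other arrays, so that its difference of 0.86 (limma adjusted p = 0.858) was -0.15 without that array.

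Markers of other leukocytes covered low and middle levels of the table. Of 9 neutrophil markers, 6 lay below the 25th percentile, and their mean level ran from 3.95 to 4.21 in wild type and from 4.05 to 4.17 with miR-100 overexpression. S100a8 had the lowest p of them, a row at percentile 4.44 that differed by -0.37 (limma adjusted p = 0.519). Cxcr2, named after its values were seen, differed in the other direction, by 0.40 (limma adjusted p = 0.646). The 9 T and NK cell markers had a mean level of 4.58 to 4.87 and 4.56 to 4.71, with 3 of 9 below the 25th percentile and Cd3d at 0.28 (limma adjusted p = 0.750), and Pax5 of the B cell list and Batf3 of the dendritic cell list differed by 0.24 and 0.26. The 7 mast cell markers ranged from 4.75 to 5.05 and from 4.72 to 5.0, with 1 of 7 below the 25th percentile and Mcpt4 at 0.30 (limma adjusted p = 0.802). Cd3d, Pax5, Batf3 and Mcpt4 had the lowest p of their lists and do not stand for the whole lists. The list medians were -0.03 for neutrophils, -0.06 for T and NK, 0.09 for B, -0.02 for dendritic and -0.14 for mast cells. In that order 4, 4, 2, 2 and 3 differences were above 0 and 5, 5, 2, 5 and 4 below.

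The resident cells of the heart other than leukocytes had lists whose median differences lay between -0.10 and 0.04. Of 8 blood endothelial markers 0 passed (limma), with a median of -0.01, and Cldn5, a tight junction gene, had the lowest p at 0.55 (limma adjusted p = 0.379). Of 7 measured fibroblast markers 0 passed (limma), with a median of -0.10, and Col1a2 differed by -0.37 (limma adjusted p = 0.667). Of 8 mural cell markers 0 passed (limma), with a median of 0.04. Acta2, the smooth muscle actin gene, had 12.86, 12.71, 12.72 and 12.61 in wild type and 13.74, 14.01, 14.66 and 12.94 with miR-100 overexpression, a difference of 1.11 (limma adjusted p = 0.203) that passed, at 0.0442, without miR-100 replicate 4. Acta2 passed in only 1 run. With single arrays left out its difference ran from 0.84 to 1.41 and its limma adjusted p reached 0.398. The 10 cardiomyocyte genes had a median of -0.01, with Myl3 at -0.28 (limma adjusted p = 0.689). Several of these rows lay near the highest value of the table, 19.93, such as Atp2a2 at 19.85 in both groups. A change may not be visible there, so an unchanged muscle content is not shown. The 2 measured genes of red blood cells, Alas2 and Slc4a1, differed by -0.20 and -0.07. Over all lists beside the markers, 0 of 209 measured genes passed (limma), with 12 higher and 12 lower at an unadjusted p under 0.05, where 3.55% of all rows were higher and 4.17% lower.

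**Figure D5:**
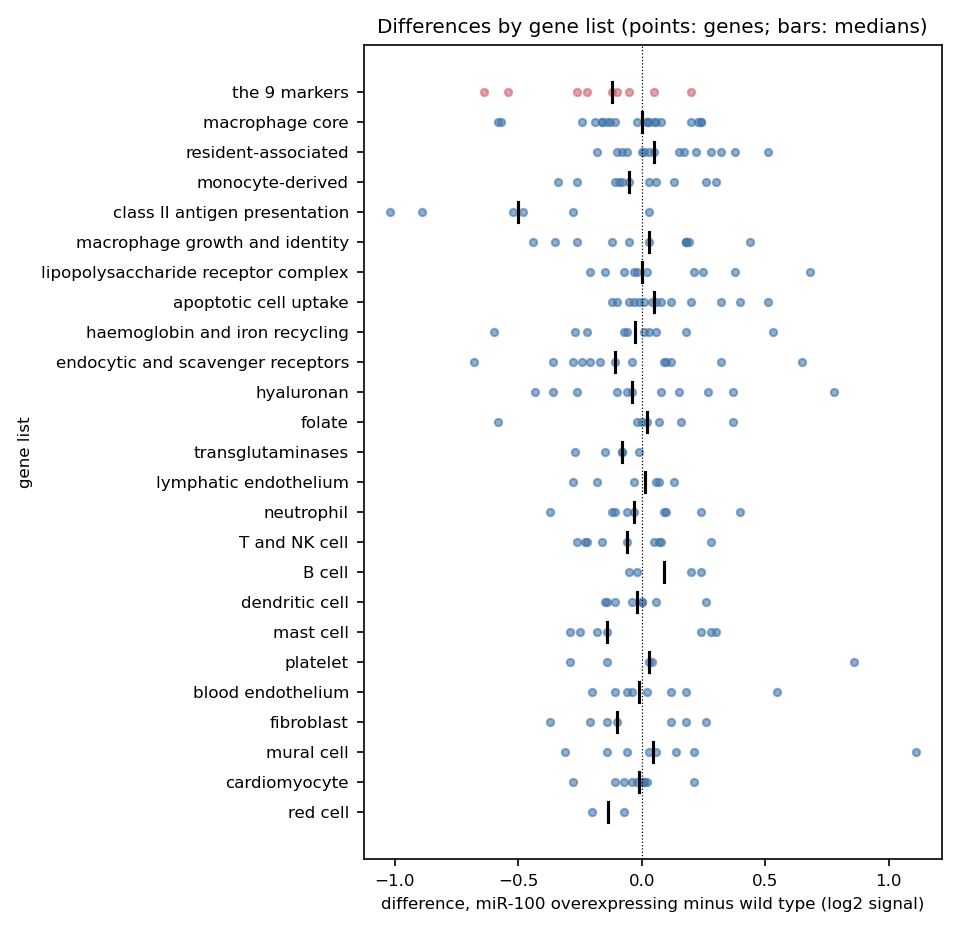
Differences of the genes in each list, miR-100 overexpressing minus wild type (horizontal axis, log2 signal), with a point per gene and a black bar at the median of each list (vertical axis, 25 lists with the 9 markers on top). The class II list has the lowest median, -0.50, while the other medians lie between -0.14 and 0.09.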

How the data were processed

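Total RNA of 8 left ventricles was labelled with the Affymetrix WT Plus kit, per the labels' protocols. The authors deposited 1 log2 signal for each transcript cluster and array; the submitters' processing notes name Transcriptome Analysis Console 4.0. How signals were summarized and normalized, and on which build, is not given in the sources used here. Column medians lay between 5.70 and 5.74, so the arrays had been scaled together. The platform annotation gave 1 symbol for 19572 of 22206 rows and none for 2634. All 9 measured markers kept their symbol in a RefSeq gene table (GRCm38.p6). Where a gene had several rows, the brightest stood for it.

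The values were fitted untransformed with limma 3.58.1 (R 4.3.3) with the genotype as the only term, and Benjamini-Hochberg adjustment ran over all 22206 rows. The fit was checked on simulated data, with 200 changed rows in each of 10 runs. Exact permutation tests used all 70 assignments for differences and all 40320 pairings for correlations. The number of arrays limits the precision.

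The markers and the 24 other lists were chosen with earlier results of these data known. Named are all markers, the gene with the lowest p in each list, any past the threshold, the 5 highest and 3 lowest correlations, and the 10 genes most like the marker mean. Ptprc, Myh6, Spi1, Ccr2, Csf1, Il34, Ly96, Mertk, Gas6, Hp, Prox1, Itga2b, Slc4a1 and the pair F13a1 and Mrc1 were named for their roles after values were seen.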

Additional observations from a re-analysis of the deposited data

Results flagged for a closer look

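Within groups of 4 arrays, 4 of 106 group and gene combinations tested over 53 named genes had an array far from the other three by Dixon's gap, which chance gives in about 1 group in 20. Adgre1 was at 7.40 in miR-100 replicate 1, against 6.98 to 7.03 in the others of its group. Pdpn was at 7.74 in wild type replicate 2, against 7.36 to 7.41. Ppbp was at 7.94 in miR-100 replicate 1, against 3.52 to 4.14. Myh6 was at 19.13 in wild type replicate 2, against 19.18 to 19.19.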

How the results depend on the processing

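Under every alternative run (an intensity trend with robust moderation, weighted arrays, arrays centred or quantile normalized, dim rows dropped below percentile 25 or 50, rows with a symbol only, a looser adjusted p of 0.1, the replicate block, each array left out), 0 markers passed, and 7 or 8 of the 9 differences stayed below 0. The median marker difference ran from -0.13 to -0.11 over the settings with all arrays and from -0.23 to -0.04 with 1 array left out. Rows passing over the table numbered 31, but 58 with trend and robust moderation, 65 at 0.1, and 11 to 27 without single arrays, lowest without miR-100 replicate 3 or 4. No pair of markers passed in any setting tested. The median correlation of 0.12 was 0.06 around group means and 0.09 to 0.23 without single arrays. With the replicate block it was 0.23, 21 rows passed and no marker did. Deviations of same-numbered arrays from their group means correlated at -0.06 to 0.07, the same range as for differently numbered arrays. No shared deviation was seen, which cannot show whether the numbers pair the mice. Of the differences run under the alternatives, Ptprc changed sign after quantile normalization, at -0.01. With an array left out the sign changed for 10 genes, where Ptprc ran from -0.08 to 0.07, Prox1 from -0.06 to 0.15, Ciita from -0.04 to 0.12, Itga2b from -0.36 to 0.06, Slc4a1 from -0.25 to 0.09, Cd163 ran from -0.14 to 0.28, Ppbp from -0.15 to 1.32, Mertk from -0.06 to 0.23, Ccr2 from -0.02 to 0.48 and Spi1 from -0.07 to 0.43. The cause was not tested. The deposited values carry no background level, so dim rows may not be above it.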
